A study of Mus musculus with 21 samples.

Results

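The 10 genes described here make, break down or sense prostaglandins, and they were chosen by gene symbol. They are the cyclooxygenases Ptgs1 and Ptgs2, the terminal synthases Ptges, Ptgds, Ptgis and Tbxas1, the degrading enzyme Hpgd, and the prostaglandin E2 receptors Ptger1, Ptger3 and Ptger4. All 10 were found, among 21004 genes in the table of raw counts and 21287 genes in the table of normalized counts. RNA-seq was performed on kidneys of female apoE KO mice on the C57BL/6J background, a strain that lacks apolipoprotein E and becomes hypercholesterolemic on chow. The mice were 4 weeks old when the diets began and 18 weeks old after 14 weeks of feeding. Con mice (n = 5) received chow, Ade mice (n = 6) received chow with 0.2% adenine, which injures the kidney tubules, and Ade + IMC mice (n = 6) received 0.2% adenine and 0.06% iodomethylcholine (IMC), an inhibitor of the microbial enzyme that forms trimethylamine. All groups carry the apoE knockout and no wild-type group is analysed here, so the groups describe diets within 1 hypercholesterolemic strain and 1 sex. Con + IMC mice (n = 4) are not analysed here.

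Prostaglandins are lipids formed from arachidonic acid, which phospholipases cut from membranes. A cyclooxygenase converts it to prostaglandin H2, and terminal synthases then turn prostaglandin H2 into prostaglandin E2, D2, prostacyclin or thromboxane. These products act close to where they are made, through receptors coupled to G proteins, and are taken up and oxidised by 15-hydroxyprostaglandin dehydrogenase, the product of Hpgd. In the kidney they are known for their part in blood flow, renin release and the handling of salt and water, and Ptgs2 is known in the macula densa and in interstitial cells of the medulla.

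Total counts ranged from 5444833 to 11680809 per mouse, with medians of 8864086 in Con, 7306464.5 in Ade and 6996367.5 in Ade + IMC. Values are given as CPM, which are counts scaled by TMM to a common library size, and 3 counts in the shallowest library correspond to 0.501 CPM on this scale. Ade + IMC mouse 311 stood apart from the 5 other mice of its group, with a chi-square per degree of freedom over genes of 40.9 to 69.6 beside 9.06 to 31.1 for the other pairs of that group. Apoe, the targeted gene, had 47 to 214 counts in each of the 17 mice, and since every group carries the knockout this does not check the diets. Kidney markers were present in all groups. Of the other cell types, the summed level of 9 macrophage markers had a median of 250 CPM in Con (range 219.6 to 259), 2301 CPM in Ade (1486 to 2441) and 1758 CPM in Ade + IMC (1341 to 2254), and all 9 were higher in Ade than in Con. Similarly, 7 fibroblast markers summed to 264 CPM in Con (260.1 to 326), 2298 CPM in Ade (2038 to 2537) and 2135 CPM in Ade + IMC (1519 to 2267), and all 7 were higher in Ade. The 5 lymphocyte markers summed to 3.32 CPM in Con (3.25 to 4.68), 42.4 CPM in Ade (21.2 to 142) and 30.5 CPM in Ade + IMC (20.2 to 281), and all 5 were higher in Ade. The 4 urothelial markers summed to 10.6 CPM in Con (0.649 to 19.9), 20.9 CPM in Ade (9.06 to 87.9) and 36.6 CPM in Ade + IMC (4.15 to 98.3), and 3 of them were higher in Ade. The 6 proximal tubule markers summed to 10831 CPM in Con (8892 to 13223), 2363 CPM in Ade (1232 to 5198) and 3164 CPM in Ade + IMC (2134 to 4358), and 5 of the 5 tested were lower in Ade. These marker levels differed between the same groups as the genes below, and their part in the differences from Con was not tested. In whole kidney, fewer cells of a type and less RNA per cell cannot be told apart.

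The promoters of the 4 genes that the comparisons with Con turn on are shown first, because Ptgs2, Ptgds and Ptger4 were higher and Hpgd was lower in Ade. Each sequence runs from 250 bases before to 50 bases after the RefSeq start in GRCm38.p6, and 8 of the 10 genes had such a window. Ptgis and Ptger1 are named only. Capitals mark matches, on either strand, to the TATA box TATAAA, the cyclic AMP element TGACGTCA, the E box CACGTG, the AP-1 motif TGANTCA, the C/EBP motif TTGCNNAA, the GC box GGGCGG or the kappaB motif.
Ptgs2, chr1:150099781-150100080, plus strand: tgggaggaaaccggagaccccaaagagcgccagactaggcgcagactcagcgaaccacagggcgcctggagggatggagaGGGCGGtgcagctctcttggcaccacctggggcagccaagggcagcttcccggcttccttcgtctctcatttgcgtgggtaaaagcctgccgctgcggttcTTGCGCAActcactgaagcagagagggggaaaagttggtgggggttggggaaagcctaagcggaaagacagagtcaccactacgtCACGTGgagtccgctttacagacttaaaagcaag
Ptgds, chr2:25469700-25469999, minus strand: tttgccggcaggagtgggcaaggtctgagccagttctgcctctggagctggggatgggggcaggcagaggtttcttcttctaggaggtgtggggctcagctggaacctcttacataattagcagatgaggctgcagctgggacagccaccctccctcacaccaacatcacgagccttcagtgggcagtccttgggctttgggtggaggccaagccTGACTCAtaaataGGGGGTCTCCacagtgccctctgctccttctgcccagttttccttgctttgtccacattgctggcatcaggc
Ptger4, chr15:5244138-5244437, minus strand: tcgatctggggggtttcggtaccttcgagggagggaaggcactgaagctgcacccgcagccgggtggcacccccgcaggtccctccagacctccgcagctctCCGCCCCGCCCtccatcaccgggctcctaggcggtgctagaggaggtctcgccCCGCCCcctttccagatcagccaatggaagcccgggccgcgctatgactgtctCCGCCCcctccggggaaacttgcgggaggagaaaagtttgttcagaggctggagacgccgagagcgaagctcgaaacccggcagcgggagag
Hpgd, chr8:56294302-56294601, plus strand: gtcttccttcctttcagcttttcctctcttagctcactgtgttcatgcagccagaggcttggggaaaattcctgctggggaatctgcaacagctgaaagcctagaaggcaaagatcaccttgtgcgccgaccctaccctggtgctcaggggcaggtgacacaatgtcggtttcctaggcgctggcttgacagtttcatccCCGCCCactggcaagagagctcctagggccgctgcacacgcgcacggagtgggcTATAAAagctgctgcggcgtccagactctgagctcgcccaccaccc
The Ptgs2 window holds GGGCGG at position -170, TTGCNNAA at -69 and CACGTG at 17, counted from the start. The Ptgds window holds TGANTCA at -35 and a kappaB match at -22. The Ptger4 window holds GGGCGG at -148, -143, -95 and -42, of which the first pair share a base, and it has the highest GC content of the 4, at 67.0%. The Hpgd window holds GGGCGG at -50 and TATAAA at 5. The gene bounds given below come from another annotation, GENCODE, and its Hpgd start, base 56294585, lies downstream of this TATAAA. For Ptgds the GENCODE start lies upstream of the RefSeq start. Positions in these 2 windows thus depend on the start used. Among all 32851 windows of this length, GGGCGG occurred in 35.7%, TATAAA in 13.6%, TTGCNNAA in 10.8%, the kappaB motif in 8.46%, TGANTCA in 7.81%, CACGTG in 7.15% and TGACGTCA in 1.79%. TGACGTCA was in none of the 4 windows shown. These matches describe letters and not binding.

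Of the 10 genes, 7 differed between Ade and Con: 4 were higher and 3 were lower, by edgeR's quasi-likelihood test at an adjusted p below 0.1. Among all 14612 genes tested 67.3% passed, 35.1% higher and 32.2% lower, so this count lies near the background. The CPM ranges of Ade and Con did not overlap for 5 of the 10 genes, against 43.0% of all genes. The median log2 fold change of the 10 genes was 0.10, beside 0.02 for all genes tested. What set the genes apart from each other was direction and size: Ptgds, Ptger4, Ptgs2 and Ptgis rose, while Hpgd, Ptgs1 and Ptger3 fell.

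**Figure D1:**
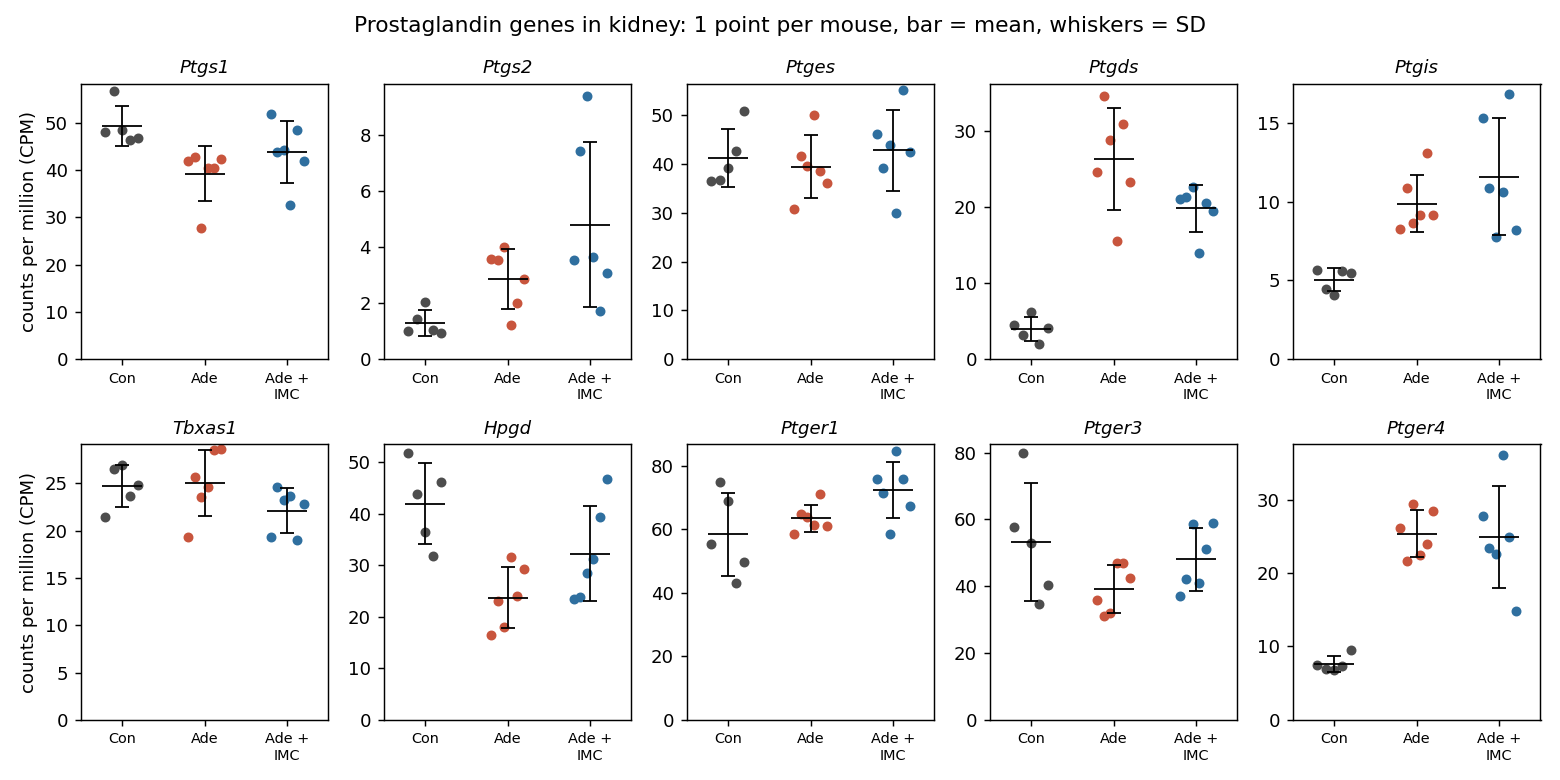
CPM (vertical axis, from 0) of the 10 genes in Con, Ade and Ade + IMC kidneys, with 1 point per mouse, bars for the group mean and whiskers for the SD. The Ade and Ade + IMC mice all lie above the Con mice for Ptgds, Ptgis and Ptger4, and the Ade mice all lie below the Con mice for Hpgd and Ptgs1.

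Ptgs1 encodes the constitutive cyclooxygenase and lies between bases 36230426 and 36252272 of chromosome 2 in GRCm38 (plus strand). Its level was 48.1, 56.9, 48.5, 46.4 and 46.9 CPM in the 5 Con mice. In Ade it ranged from 27.7 to 42.8 CPM with a median of 41.3, and all 6 Ade mice lay below all 5 Con mice. It fell by 0.30 on the log2 scale (SE 0.10, edgeR adjusted p = 0.0227). In Ade + IMC it ranged from 32.5 to 51.9 CPM with a median of 44.1, which overlaps Con, and the log2 fold change against Con was -0.20 (SE 0.11, edgeR adjusted p = 0.127). Without Ade + IMC mouse 211 that difference passed the test (edgeR adjusted p = 0.0616).

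Ptgs2, the inducible cyclooxygenase, lies between bases 150100031 and 150108227 of chromosome 1 (plus strand). It was the scarcest of the 10 genes, with 7 to 15 counts in each Con mouse, so its values carry wide counting error. Its levels in Con were 1.01, 1.44, 2.03, 1.04 and 0.915 CPM. In Ade they ranged from 1.22 to 4.01 CPM (median 3.18), and in Ade + IMC from 1.72 to 9.40 CPM (median 3.59). Most mice of both adenine-fed groups were above every Con mouse, but Ade mice 407 and 408, at 1.22 and 2.0 CPM, and Ade + IMC mouse 410, at 1.72 CPM, lay within the Con range. Nos1, a marker of the macula densa, fell by 1.39 on the log2 scale in Ade (edgeR adjusted p = 0.00210). Of the 5 markers of the thick ascending limb and macula densa, 3 including Nos1 were lower in Ade. Cldn16 was higher (log2 fold change 0.48, edgeR adjusted p = 0.00749) and Umod did not pass. The 4 inner medulla markers summed to 1267 CPM in Con (889 to 1538), 714 CPM in Ade (511 to 779.7) and 783 CPM in Ade + IMC (731 to 885). In Ade 3 of them were lower, and Slc14a2 did not pass (log2 fold change 0.09, edgeR adjusted p = 0.904). Their part in the Ptgs2 values was not tested. Ptgs2 rose 2.26-fold in Ade (log2 fold change 1.17, SE 0.33, edgeR adjusted p = 0.00698). It rose 3.67-fold in Ade + IMC (log2 fold change 1.88, SE 0.43, edgeR adjusted p = 0.00218). Ade + IMC also had the widest spread, with a CV of 61.4% beside 37.3% in Ade and 35.9% in Con.

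Per kilobase of exon, Ptgs1 was the more abundant cyclooxygenase in every mouse. The ratio of Ptgs1 to Ptgs2 had a median of 52.6 in Con (range 28.1 to 60.5), 16.0 in Ade (8.16 to 39.3) and 13.3 in Ade + IMC (5.57 to 33.3). The ratio was thus lower at the median in the adenine-fed groups, with ranges that overlap Con, and it rests on the few reads of Ptgs2.

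Among the terminal synthases, 2 of 4 rose in Ade, Ptgds and Ptgis, and the other two, Ptges and Tbxas1, did not pass the test in either comparison with Con. Ptgds encodes lipocalin-type prostaglandin D synthase, which also circulates as a small carrier protein and is filtered by the glomerulus. It lies between bases 25466709 and 25470046 of chromosome 2 (minus strand). Its levels in Con were 4.44, 3.18, 6.23, 1.95 and 4.05 CPM. In Ade they ranged from 15.6 to 34.7 CPM (median 26.8), and in Ade + IMC from 13.9 to 22.7 CPM (median 20.9). Every adenine-fed mouse, with or without IMC, lay above every Con mouse. Ptgds rose 6.71-fold in Ade (log2 fold change 2.75, SE 0.26, edgeR adjusted p = 1.44e-06), the largest change among the 10 genes. In Ade + IMC it rose 4.88-fold (log2 fold change 2.29, SE 0.23, edgeR adjusted p = 4.83e-06).

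Ptgis encodes prostacyclin synthase, an enzyme known from endothelium and smooth muscle, and lies between bases 167191805 and 167240604 of chromosome 2 (minus strand). It was at 5.65, 4.48, 4.06, 5.59 and 5.49 CPM in Con. It ranged from 8.26 to 13.1 CPM in Ade (median 9.18) and from 7.74 to 16.9 CPM in Ade + IMC (median 10.8). No adenine-fed mouse overlapped Con. It rose 1.98-fold in Ade (log2 fold change 0.99, SE 0.16, edgeR adjusted p = 0.000133) and 2.24-fold in Ade + IMC (log2 fold change 1.17, SE 0.22, edgeR adjusted p = 0.000555). Beside this, 4 smooth muscle markers summed to a median of 231 CPM in Con (229 to 275), 416 CPM in Ade (379.8 to 466) and 438 CPM in Ade + IMC (241 to 648), and 2 of the 4 were higher in Ade. The 6 endothelial markers summed to 721 CPM in Con (646 to 919), 569.7 CPM in Ade (346 to 753) and 745 CPM in Ade + IMC (487 to 948), and 4 of them were lower in Ade. Their part in the Ptgis difference was not tested.

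Ptges encodes microsomal prostaglandin E synthase and lies between bases 30889471 and 30929863 of chromosome 2 (minus strand). Its ranges overlapped, from 36.5 to 51.0 CPM in Con, 30.8 to 50.1 CPM in Ade and 30.0 to 55.3 CPM in Ade + IMC. The log2 fold change was -0.04 in Ade (95% interval -0.30 to 0.22, edgeR adjusted p = 0.799) and 0.03 in Ade + IMC (95% interval -0.26 to 0.31, edgeR adjusted p = 0.887). Tbxas1, which encodes thromboxane synthase and lies between bases 38875404 and 39084585 of chromosome 6 (plus strand), ranged from 21.5 to 27.0 CPM in Con, 19.3 to 28.6 CPM in Ade and 19.0 to 24.6 CPM in Ade + IMC. Its log2 fold change was 0.05 in Ade (95% interval -0.19 to 0.28, edgeR adjusted p = 0.727) and -0.18 in Ade + IMC (95% interval -0.39 to 0.03, edgeR adjusted p = 0.131). Without Con mouse 201 the latter passed the test (edgeR adjusted p = 0.0698). Thromboxane synthase is known from platelets and macrophages, and while the macrophage markers rose, the platelet markers moved in different directions. Of the 3 that were tested, Pf4 was higher in Ade (log2 fold change 3.24), Gp1ba was lower (-0.47) and Itga2b did not pass (-0.29), and in Ade + IMC against Con 1 was higher and 2 were lower. The 5 platelet markers summed to 13.8 CPM in Con (11.8 to 18.2), 17.3 CPM in Ade (13.1 to 21.8) and 16.3 CPM in Ade + IMC (12.2 to 19.2), with Gp9 at 3 counts or fewer in every Con and Ade + IMC mouse.

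Hpgd, which encodes the enzyme that begins prostaglandin breakdown, lies between bases 56294585 and 56321043 of chromosome 8 (plus strand). It was at 51.7, 43.8, 36.4, 31.7 and 46.1 CPM in Con. In Ade it ranged from 16.4 to 31.5 CPM (median 23.5), with all 6 mice below all 5 Con mice, although the highest Ade mouse at 31.5 CPM was close to the lowest Con mouse at 31.7 CPM. It fell 1.74-fold in Ade (log2 fold change -0.80, SE 0.17, edgeR adjusted p = 0.00103). In Ade + IMC it ranged from 23.4 to 46.8 CPM (median 29.8) and overlapped Con. It was lower there with a log2 fold change of -0.41 (SE 0.18, edgeR adjusted p = 0.0662), and this call was lost without Con mouse 201, 202 or 403 and without Ade + IMC mouse 211, 212 or 310, with edgeR adjusted p-values of 0.166, 0.11, 0.122, 0.138, 0.136 and 0.117. Upper-quartile scaling (0.134) and a fit of all 17 mice (0.105) also lost it, and the adjusted p ran from 0.0147 to 0.166 over all alternatives.

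The prostaglandin E2 receptors moved in different directions. Ptger4 encodes EP4, which couples to Gs and raises cyclic AMP, and lies between bases 5206661 and 5244187 of chromosome 15 (minus strand). It was at 7.47, 6.93, 6.77, 7.27 and 9.54 CPM in Con. It ranged from 21.7 to 29.4 CPM in Ade (median 25.1) and from 14.8 to 36.1 CPM in Ade + IMC (median 24.2), and no adenine-fed mouse overlapped Con. It rose 3.38-fold in Ade (log2 fold change 1.76, SE 0.13, edgeR adjusted p = 1.13e-07), with the smallest adjusted p of the 10 genes. In Ade + IMC it rose 3.23-fold (log2 fold change 1.69, SE 0.20, edgeR adjusted p = 1.68e-05). Of its 6648 exonic bases 1015 are shared with Gm15937 on the opposite strand.

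Ptger3 encodes EP3, which couples to Gi and lowers cyclic AMP, and lies between bases 157566892 and 157645888 of chromosome 3 (plus strand). It was at 57.6, 80.0, 52.8, 34.7 and 40.4 CPM in Con, the widest relative spread among Ptger1, Ptger3 and Ptger4. In Ade it ranged from 31.0 to 47.1 CPM (median 39.0), which overlaps Con, and in Ade + IMC from 36.9 to 58.9 CPM (median 46.7). It fell by 0.42 on the log2 scale in Ade (SE 0.19, edgeR adjusted p = 0.0751). This call was lost under upper-quartile scaling (edgeR adjusted p = 0.116) and without Con mouse 201, 202 or 301 or Ade mouse 207, 208 or 308, with edgeR adjusted p-values of 0.133, 0.253, 0.108, 0.121, 0.149 and 0.139. Without Con mouse 202 the log2 fold change was -0.22. Over all alternatives the adjusted p ran from 0.0203 to 0.253. Mouse numbers begin with 2, 3 or 4, a digit whose meaning is not stated. Within each leading digit the log2 difference was -1.02 for the digit 2, -0.42 for the digit 3 and 0.17 for the digit 4, where the digit 4 holds 1 Con mouse and the digit 3 holds 1 Ade mouse. In Ade + IMC the log2 fold change against Con was -0.17 (95% interval -0.59 to 0.25, edgeR adjusted p = 0.472). EP3 is known from the thick ascending limb and the collecting duct. The 5 markers of the former summed to medians of 7017 CPM in Con (5192 to 9650), 5195 CPM in Ade (2733 to 6411) and 6363 CPM in Ade + IMC (5438 to 8426), and 3 were lower and 1 higher in Ade. The 6 collecting duct markers summed to 712 CPM in Con (542 to 834), 370.4 CPM in Ade (274 to 431) and 495 CPM in Ade + IMC (357 to 612), and all 5 tested were lower in Ade. Their part in the Ptger3 values was not tested.

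Ptger1 encodes EP1, a receptor that raises intracellular calcium, and lies between bases 83666678 and 83672753 of chromosome 8 (plus strand). Its values are uncertain, because the use of strand in counting is not given. Ptgs1, Ptgis and Tbxas1 share 148, 156 and 144 exonic bases with opposite-strand genes, and Ptgs2, Ptges, Ptgds, Hpgd and Ptger3 share 0. It ranged from 43.1 to 74.8 CPM in Con, 58.5 to 71.0 CPM in Ade and 58.6 to 84.7 CPM in Ade + IMC, and these ranges overlap. The log2 fold change was 0.14 in Ade (95% interval -0.13 to 0.42, edgeR adjusted p = 0.349) and 0.28 in Ade + IMC (95% interval -0.02 to 0.59, edgeR adjusted p = 0.104). Ade against Con passed without Con mouse 202 (edgeR adjusted p = 0.0929). Ade + IMC against Con passed without Con mouse 202 or 301 or Ade + IMC mouse 310 or 412 (edgeR adjusted p = 0.0320, 0.0686, 0.0528 and 0.0680), and also with the replicate block (0.0961), RLE scaling (0.0867), upper-quartile scaling (0.0524) and all 17 mice in 1 fit (0.0353).

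**Figure D2:**
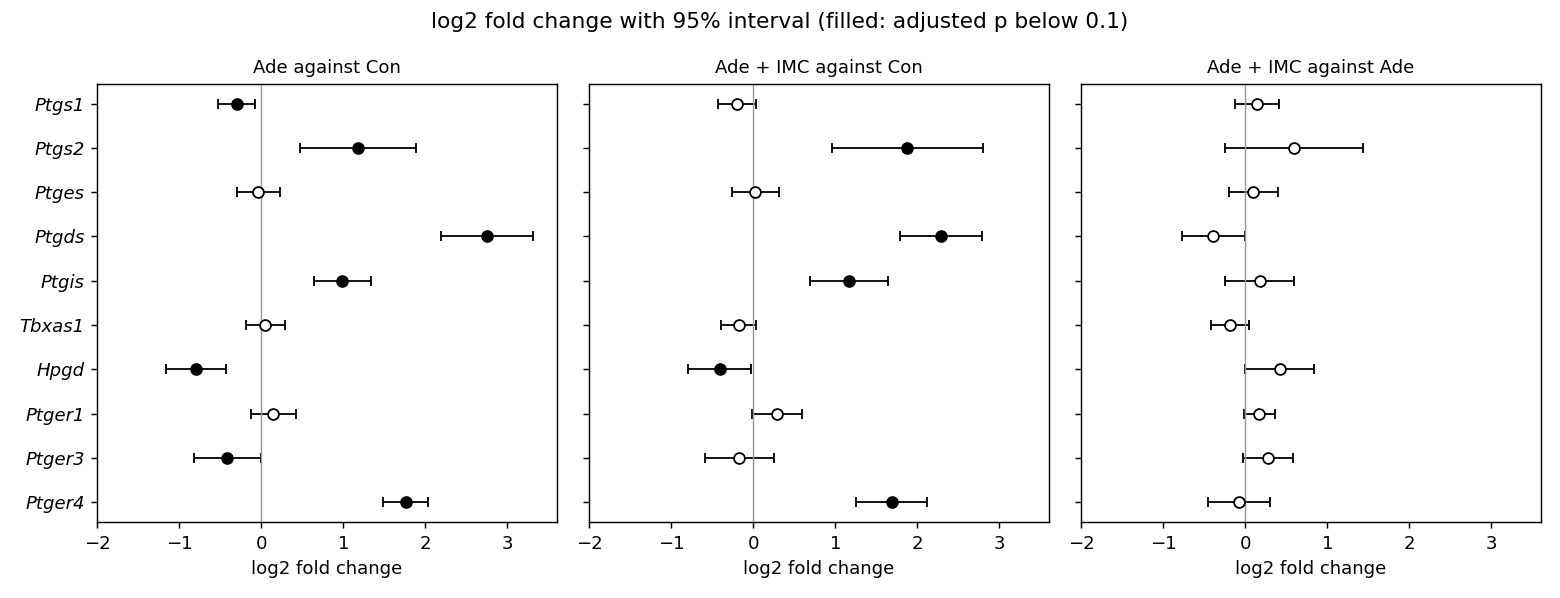
Fold change on the log2 scale (horizontal axis) of the 10 genes in the 3 comparisons, with 95% intervals as whiskers and filled points for an adjusted p below 0.1. Ptgds at 2.75 and Ptger4 at 1.76 stand farthest to the right in Ade against Con, and no point is filled in Ade + IMC against Ade.

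Against Con, 5 of the 10 genes differed in Ade + IMC, 4 higher and 1 lower, beside 63.2% of the 14578 genes tested, 30.9% higher and 32.3% lower. The ranges did not overlap for 3 of the 10, Ptgds, Ptgis and Ptger4, beside 37.0% of all genes. The 2 comparisons with Con use the same 5 Con mice, so their values stand side by side and were not compared as independent results. Within each leading digit of the mouse numbers, Ptgs2, Ptgds, Ptgis and Ptger4 were higher and Ptgs1 and Hpgd were lower in all 3 digits in both comparisons. The digit 4 holds 1 Con mouse and the digit 3 holds 1 Ade mouse. The share of all genes with a single sign over the digits is not given here. In Ade + IMC some of the falls were small. Ptgs1 differed there by -0.13, -0.32 and -0.06 on the log2 scale for the digits 2, 3 and 4. The fall of Hpgd there was largest in the digit 2, with -0.19 and -0.10 in the digits 3 and 4. In Ade the log2 difference of Ptgds was 2.87, 2.94 and 2.39 for the digits 2, 3 and 4, that of Ptger4 was 1.69, 2.03 and 1.36, and that of Hpgd was -1.28, -0.90 and -0.71. With the digit as a replicate block, the log2 fold change in Ade was 2.82 for Ptgds, 1.75 for Ptger4 and -0.98 for Hpgd (edgeR adjusted p = 3.21e-06, 5.28e-07 and 5.67e-05). Without Ade + IMC mouse 311, again 5 of the 10 genes differed from Con, beside 8897 of 14364 genes in that fit, with log2 fold changes of 2.37 for Ptgds, 1.96 for Ptgs2, 1.55 for Ptger4, 1.19 for Ptgis and -0.41 for Hpgd.

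Levels per kilobase of exon gave an order of the genes within each group. In Con, Hpgd had the highest level at 24.9 ± 4.71 CPM per kilobase (SD, n = 5), followed by Ptgs1 at 12.7, Ptger1 at 10.7, Ptges at 10.5 and Ptger3 at 9.34. Tbxas1 at 2.72, Ptgds at 2.41, Ptgis at 1.97, Ptger4 at 1.14 and Ptgs2 at 0.281 formed the lower part of the order. Neighbours in the order whose ranges did not overlap were Hpgd and Ptgs1, Ptger3 and Tbxas1, Ptgis and Ptger4, and Ptger4 and Ptgs2, and the other neighbours overlapped. In Ade, Ptgds had the highest mean at 16.0, followed by Hpgd at 14.1, with overlapping ranges. Ptgds thus moved from the seventh place in Con to the first in Ade. In Ade + IMC, Hpgd was again highest at 19.1, then Ptger1 at 13.3 and Ptgds at 12.1, and of all neighbours only Tbxas1 and Ptgs2 did not overlap. Exonic length is the union of annotated exons, so these levels shift for genes with long alternative transcripts.

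**Figure D3:**
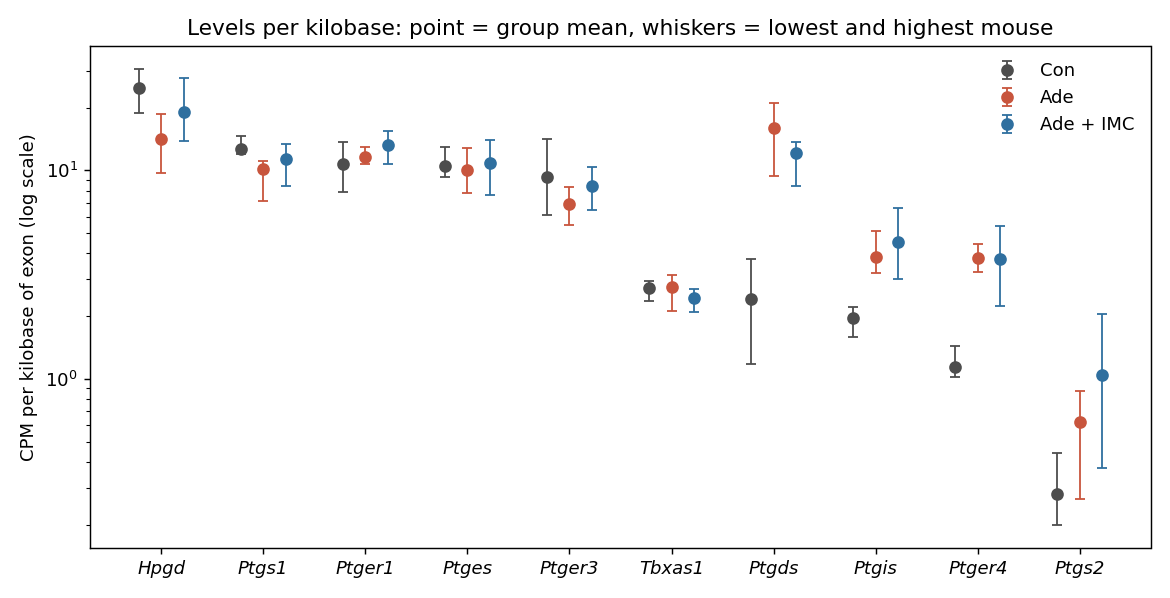
CPM per kilobase of exon (vertical axis, log scale) of the 10 genes, ordered by their mean in Con, with points for the group mean and whiskers from the lowest to the highest mouse. Ptgds rises from 2.41 in Con to 16.0 in Ade and 12.1 in Ade + IMC, and Ptgs2 is the lowest gene in each group.

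IMC was given to ask whether blocking trimethylamine formation changes the kidney in adenine-fed mice. None of the 10 genes passed the test between Ade + IMC and Ade, and none of the 14696 genes tested did (0%), by limma on log2(normalized count + 1). DESeq2 on the reads recovered from the normalized counts called 37 genes and edgeR on them 0, with none of the 10 genes among them. Over all 23 alternatives the number of genes called ran from 0 to 591, the highest with the leading-digit block given below. The study itself reports both down-regulated and up-regulated genes for this comparison, by DESeq2 at the same threshold, and the reason for the difference was not tested. At an unadjusted p below 0.05 stood 2 of the 10 genes, Ptgds and Hpgd, beside 6.72% of all genes. The limma adjusted p-values of the 10 genes lay between 0.731 and 0.948. No member's ranges were separate, against 0.204% of all genes.

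Ptgds was lower in Ade + IMC by value, with normalized counts of 105 to 168 (median 154) beside 116 to 261 (median 201) in Ade. Its log2 difference on this scale was -0.39 (95% interval -0.77 to -0.0081, limma adjusted p = 0.731), and the two-sided exact permutation test over 924 splits gave p = 0.0779. Hpgd was higher in Ade + IMC by value, with normalized counts of 175 to 342 (median 222) beside 122 to 235 (median 175) in Ade. Its log2 difference was 0.42 (95% interval 0.0012 to 0.84, limma adjusted p = 0.739, exact permutation p = 0.0952). Hpgd therefore lay between Con and Ade by its median CPM, at 29.8 beside 43.8 and 23.5. For Ptger3 the log2 difference was 0.28 (95% interval -0.02 to 0.59, limma adjusted p = 0.746, exact permutation p = 0.0996). Without Ade + IMC mouse 311 the log2 differences were -0.29 for Ptgds, 0.42 for Hpgd and 0.32 for Ptger3, and 0 of the 10 genes passed.

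The leading digit of the mouse numbers was used as a possible batch. Permuted within it, over 180 splits, Hpgd and Ptger3 had two-sided exact p = 0.00556 each, the smallest these splits can give, with log2 differences of 0.51 and 0.33. For Hpgd the difference was 0.27, 0.70 and 0.59 in the digits 2, 3 and 4, and for Ptger3 it was 0.24, 0.60 and 0.25. The digit 3 sets 2 Ade + IMC mice against 1 Ade mouse, 308, the shallowest library, and the Ade group has 2 and 3 mice in the digits 2 and 4. In limma with the digit as a replicate block, Hpgd had adjusted p = 0.102 and Ptger3 adjusted p = 0.180, in a fit that called 133 of 14696 genes. DESeq2 on recovered reads with the block, chosen after the data were seen, called Hpgd (log2 fold change 0.50, DESeq2 adjusted p = 0.0190) among 591 of 21287 genes. With the block, edgeR did not call it (adjusted p = 0.115) and called 104 of 14657 genes. Over all alternatives the adjusted p of Hpgd ran from 0.0190 to 0.996. Across the other 8 genes the exact permutation p within the digit was at least 0.0611. Ptgds, at -0.46, -0.71 and -0.18, was lower in each digit (exact p = 0.10). The same direction in every digit was also seen for Ptgs1, Ptgs2, Ptgis and Ptger1, which were higher, and for Tbxas1, which was lower.

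**Figure D4:**
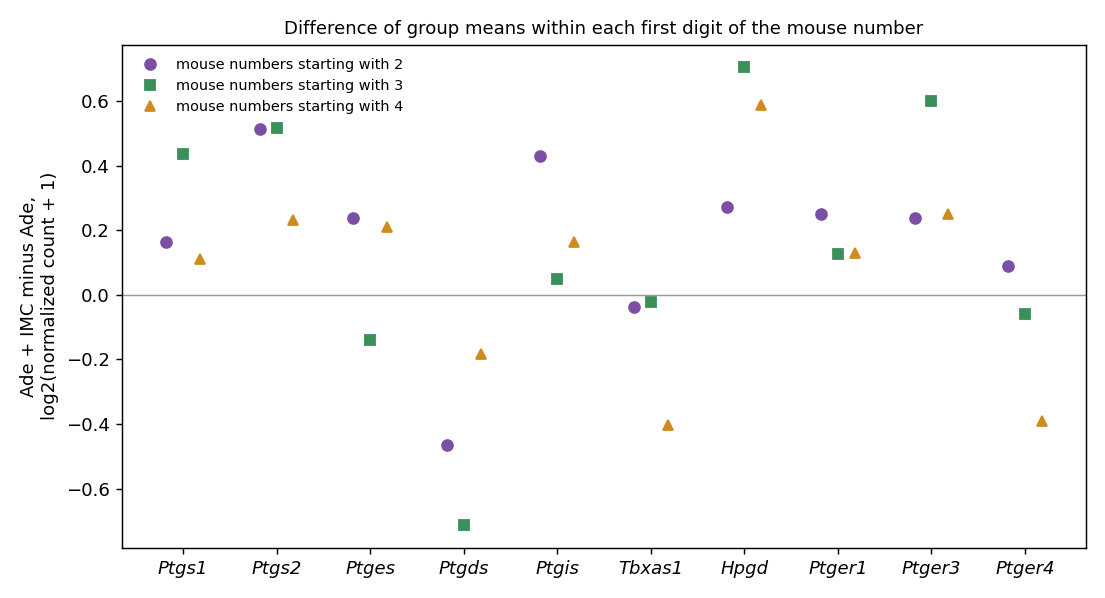
Difference between the group means of Ade + IMC and Ade (vertical axis, log2 of normalized count + 1) for the 10 genes, with 1 marker for each leading digit of the mouse numbers. Hpgd at 0.27, 0.70 and 0.59 and Ptger3 at 0.24, 0.60 and 0.25 lie above 0 in each digit, as do Ptgs1, Ptgs2, Ptgis and Ptger1. Ptgds and Tbxas1 lie below 0 in each.

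For the remaining 7 genes the 95% interval of the difference between Ade + IMC and Ade included 0. Ptgs2 had the largest log2 difference, 0.59, with the widest interval (-0.25 to 1.44, limma adjusted p = 0.788). For Ptgs1, Ptgis, Ptges and Ptger1 the log2 differences were 0.15 (95% interval -0.12 to 0.42), 0.18 (-0.24 to 0.60), 0.10 (-0.20 to 0.39) and 0.17 (-0.02 to 0.36). For Tbxas1 and Ptger4 they were -0.18 (-0.42 to 0.05) and -0.08 (-0.45 to 0.30). Beside them, all 9 macrophage markers had lower values in Ade + IMC than in Ade, with a median log2 difference of -0.26, and none passed the test. Other marker lists had higher values in Ade + IMC, like Hpgd and Ptger3. These were all 5 collecting duct markers tested (median log2 difference 0.41), all 6 endothelial markers (0.36), all 4 podocyte markers (0.51) and all 4 inner medulla markers (0.38). The 3 fat cell markers tested also had higher values (median 1.15), and the list summed to 0.520 CPM in Con (0.404 to 6.06), 3.33 CPM in Ade (0.250 to 54.4) and 18.2 CPM in Ade + IMC (0.138 to 250.3). The thick ascending limb and proximal tubule lists were mixed, each with 3 markers higher and 2 lower (medians 0.34 and 0.42). None passed the test, and their part in the Hpgd and Ptger3 values was not tested.

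The rest of the pathway was followed in 47 other genes, of which 43 were in the table of raw counts and 33 were tested in Ade against Con. Of the 33, 12 were higher, 13 were lower and 8 did not pass. Of all genes 67.3% passed, 35.1% higher and 32.2% lower, and the counts by role below stand beside these shares. The median log2 fold change of the 33 was 0.04. In Ade + IMC against Con 11 of 33 were higher and 10 lower, beside 30.9% and 32.3% of all genes, and in Ade + IMC against Ade 0 of 34 passed.

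The phospholipase A2 family, some of whose members release arachidonic acid, split by direction. In Ade 4 of 10 were higher and 4 lower, beside 35.1% and 32.2% of all genes. The 4 higher include Pla2g7, which acts on platelet-activating factor, and the lysosomal enzyme Pla2g15. Pla2g2d, a secreted phospholipase of immune cells, rose from 0.130 to 1.01 CPM in Con to 4.43 to 29.4 CPM in Ade (log2 fold change 4.63, SE 0.59, edgeR adjusted p = 1.86e-05). It had 1 to 7 counts in each Con mouse, so the size of this fold change is imprecise. Pla2g7 rose with a log2 fold change of 1.52. Pla2g3 and Pla2g5, other secreted phospholipases, fell by 0.67 and 0.32 on the log2 scale. Pla2g4a, the cytosolic enzyme that feeds the cyclooxygenases, rose by 0.74 and was named after its value was seen.

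Of 7 other prostanoid synthases 1 was higher and 5 were lower in Ade, beside 35.1% and 32.2% of all genes. The 1 that rose was Hpgds, which encodes hematopoietic prostaglandin D synthase, from 2.17 to 3.79 CPM in Con to 14.7 to 26.5 CPM in Ade (log2 fold change 2.72, SE 0.21, edgeR adjusted p = 2.08e-07). Both known prostaglandin D synthases, Ptgds and Hpgds, were thus higher in every Ade mouse than in any Con mouse. Akr1c18, a hydroxysteroid dehydrogenase of the aldo-keto reductase family, and Cbr1, a carbonyl reductase, fell by 1.94 and 1.49 on the log2 scale.

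Of 5 genes of transport and later breakdown 2 were higher and 3 lower, beside 35.1% and 32.2% of all genes. Ptgr2 and Ptgr1 encode prostaglandin reductases, which act after Hpgd, and moved apart: Ptgr2 fell by 1.12 on the log2 scale and Ptgr1 rose by 0.71. Of the 5929 exonic bases of Ptgr2, 1896 are shared with Gm47484 on the opposite strand. Slco2a1, the prostaglandin uptake transporter, rose by 0.24, and Abcc4, an efflux pump that exports prostaglandins, fell by 0.53.

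Of the 4 other prostanoid receptors tested, Ptger2 and Ptgir rose with log2 fold changes of 1.85 and 1.59, and Ptgfr, the receptor for prostaglandin F, fell by 1.05 on the log2 scale. Ptger2 encodes EP2 and Ptgir the prostacyclin receptor, and both couple to Gs like EP4. Ptger2 was scarce, at 0.260 to 0.813 CPM in Con and 1.08 to 4.85 CPM in Ade. In the leukotriene branch, the other route from arachidonic acid, 3 of 7 were higher and 0 lower, beside 35.1% and 32.2% of all genes. Among the higher genes were Alox5ap, which helps 5-lipoxygenase act, and Cysltr1, a receptor for cysteinyl leukotrienes, with log2 fold changes of 2.95 and 2.06.

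**Figure D5:**
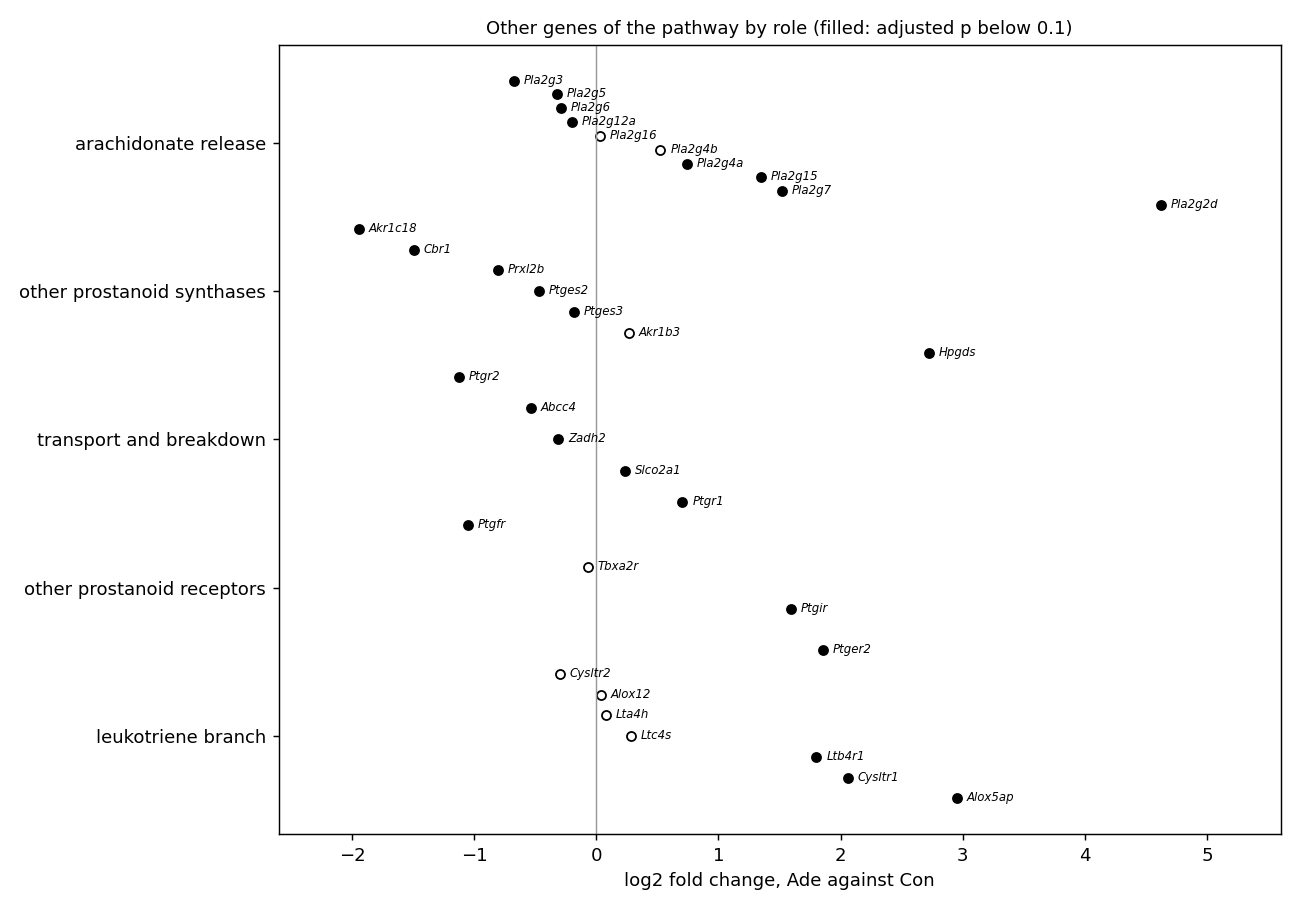
Fold change of Ade against Con on the log2 scale (horizontal axis) for the 33 other pathway genes tested, in rows by role, with filled points for an adjusted p below 0.1. Pla2g2d at 4.63, Alox5ap at 2.95 and Hpgds at 2.72 lie farthest to the right and Akr1c18 at -1.94 farthest to the left, and the value of Pla2g2d rests on 1 to 7 counts per Con mouse.

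The genes whose pattern over the 17 mice was most like that of Ptgds were Pdlim4, Oas2 and Mgl2, with root mean square differences of 0.273, 0.321 and 0.324 on the log2 CPM scale, taken from the mean of the Con mice over 14612 genes. The genes most like Hpgd were Cab39l, Tvp23b and Ddo, at 0.227, 0.238 and 0.241.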

How the data were processed

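The authors deposited raw counts per gene for Con and Ade, and, for Ade and Ade + IMC, counts divided by size factors, a signal scale described in the study's methods as the median of ratios normalization of DESeq2. Libraries were TruSeq, sequenced as 50 bp single-end reads. The study's methods name STAR and mm10, while the submitters' processing notes list Trimmomatic 0.39, FastQC 0.11.8, Bowtie2 2.2.5 and HTSeq 0.9.1. The strand setting and annotation release are not given in the sources used here. A further deposited table, which holds the authors' own comparison, was used only to pair gene names with identifiers. The genes and lists were chosen with earlier results of these data known.

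The normalized counts were whole multiples of 1 read's value in 100% of values (tolerance 1e-06 reads), and reads recovered this way for the Ade mice matched the raw table, with 0 values unequal. Each table lists genes with at least 5 reads in total, and 20634 genes are in both. No pair of mice within a group differed by less than sampling noise (lowest chi-square per degree of freedom 3.97). Ade and Ade + IMC were each compared with Con by edgeR 4.0.16 (quasi-likelihood test, TMM, filterByExpr, R 4.3.3), and Ade + IMC with Ade by limma 3.58.1 with trend on log2(normalized count + 1), for genes with a mean of at least 10. All used Benjamini-Hochberg adjustment over all genes tested and a threshold of 0.1, and were tested on simulated data. DESeq2 1.42.0 was an alternative. The exact permutation tests were two-sided. CPM came from 1 scaling of the raw and recovered reads of all 17 mice. Positions and exons were taken from GENCODE (GRCm38), which held 98.6% of the identifiers, and promoters from RefSeq (GRCm38.p6). The annotation overlap of Ptger1 is not reported here. Of other pathway genes, up to 2 called per role and direction with the largest absolute log2 fold change in Ade against Con were named, and for the largest rise and fall the 3 genes with the smallest root mean square difference. Pla2g15 and Pla2g4a were named beyond this rule. Alternatives were other scalings, filters, tools, thresholds, pseudocounts, fits of all 17 mice, a block for the leading digit of the mouse numbers, and each mouse left out.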

Additional observations from a re-analysis of the deposited data

Results flagged for a closer look

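In 4 of the 30 groups of values (10 genes in 3 groups of mice), 1 mouse stood far from the others of its group, where chance gives about 1 in 20. Ptgs1 was at 56.9 CPM in Con mouse 202, beside 46.4 to 48.5 CPM in the other Con mice. Ptgs1 was at 27.7 CPM in Ade mouse 308, beside 40.4 to 42.8 CPM in the other Ade mice, and this library had the lowest total count, 5444833. Ptgds was at 13.9 CPM in Ade + IMC mouse 311, beside 19.5 to 22.7 CPM in the others. Ptger4 was at 9.54 CPM in Con mouse 403, beside 6.77 to 7.47 CPM in the others. Leaving out any single mouse kept the calls of Ptgs1, Ptgds and Ptger4 in Ade against Con, and those of Ptgds and Ptger4 in Ade + IMC against Con.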

How the results depend on the processing

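The calls of Ptgs2, Ptgds, Ptgis and Ptger4 against Con, in both adenine-fed groups, and those of Ptgs1 and Hpgd in Ade against Con, held under all 18 alternatives run for each, and 6 to 7 of the 10 genes were called in Ade against Con and 4 to 6 in Ade + IMC against Con. For Ade + IMC against Ade, 0 of the 10 genes were called except under DESeq2 with the replicate block, which called 1, Hpgd. All genes called there were 37 with DESeq2, 133 in limma with the replicate block, and, both chosen after seeing the data, 591 with DESeq2 and 104 with edgeR with the block. The cause was not tested. With the block 7, 6 and 0 of the 10 genes were called in the 3 comparisons, the first and second beside 9740 of 14612 and 9193 of 14578 genes. The labels tie no mice together by this digit, so the block is a possible batch and not a pairing. Ptges, near 0, changed sign in Ade against Con under upper-quartile scaling (0.022) and without Con mouse 403 (0.047) or Ade mouse 207 (0.029), within -0.13 to 0.047 over mice left out. In Ade + IMC against Con it changed sign with the block (-0.016) and without Con mouse 201 (-0.021) or 202 (-0.015) or Ade + IMC mouse 410 (-0.052), within -0.052 to 0.11. Tbxas1 in Ade against Con was -0.0082 without Con mouse 201 (up to 0.12 over mice left out), Ptger3 in Ade + IMC against Con was 0.018 without Con mouse 202 (from -0.29), and Ptger4 in Ade + IMC against Ade was 0.065 without Ade + IMC mouse 412 (from -0.20). Depth limits Ptgs2, which had 7 to 15 counts per Con mouse.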
